A study of Mus musculus with 2 samples.

Results

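The Hippo pathway was described here through 10 genes, *Yap1*, *Wwtr1*, *Tead1*, *Tead2*, *Tead3*, *Tead4*, *Lats1*, *Lats2*, *Vgll4* and *Nf2*, which were picked by symbol from the 32589 genes of the deposited matrices. In this pathway the membrane-associated protein encoded by *Nf2* promotes the activity of the LATS kinases, which phosphorylate the coactivators YAP (*Yap1*) and TAZ (*Wwtr1*) and keep them out of the nucleus. Unphosphorylated YAP and TAZ bind the TEAD transcription factors and switch on their targets, and VGLL4 competes with them for TEAD. In the liver the pathway is known for its control of organ size and of the biliary fate of epithelial cells.

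Both libraries came from mouse livers bearing cholangiocarcinoma (CCA), induced by hydrodynamic tail vein injection of transposon plasmids for the Notch intracellular domain (NICD) and myristoylated AKT. Both carried doxycycline-inducible shRNAs against *Yap1* and *Wwtr1* (shYT), driven in all tissues through a CAG-rtTA3 allele and switched on from day 25, so that host cells as well as tumor cells could be depleted. Animals were given PBS (shYT_PBS) or anti–PD-1 at days 26, 29 and 32 (shYT_antiPD1), and livers were taken on day 33. The labels give 1 library per group, without the age, the sex, the number of animals or the shRNA line. The study counts several samples per group for this experiment, but its methods left out hashtag labeling here, so animals within a library were not told apart. There is no control shRNA library among them, so the values below do not measure the knockdown, and no difference between the libraries could be tested.

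The measurement was scRNA-Seq with unique molecular identifiers (UMIs). The PBS library held 19397 barcodes and 121713441 UMIs and the anti–PD-1 library 19451 and 100807037, and 219 barcode sequences occurred in both. Filters kept 15531 and 16360 cells. Each cell was placed in a class by the number of marker genes detected in it, so that each class name stands for cells that are like that type by these markers. This gave 1212 PBS and 621 anti–PD-1 tumor cells, 376 and 118 fibroblasts, 459 and 75 endothelial cells, and 11352 and 13702 immune cells. Among the immune cells, monocytes/macrophages numbered 4180 and 2383 and neutrophils 1252 and 3132. Ratios over all immune cells therefore compare unlike mixtures of lineages, and the part of this makeup in them was not tested. The median depth of tumor cells was 2586 and 1799 UMIs. Levels are CPM, the UMIs of a gene scaled to a fixed total that all classes share, and the 95% intervals in square brackets cover counting error only. The libraries stood apart by sex-linked RNA, since *Xist* had 18452 PBS and 11 anti–PD-1 UMIs and Y-linked genes were at 39.4 and 197.3 CPM. The dissociation stress list was at 6749 and 12349 CPM. Markers that the class assignment had not used were at 1956 and 2032 CPM in tumor cells (tumor markers), 8939 and 7451 CPM in fibroblasts (fibroblast markers), and 8190 and 6877 CPM in endothelial cells (endothelial markers). The tumor class may include biliary epithelial cells, which share these markers.

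Promoters of the members were searched for GGAATG, the core motif that TEAD factors recognize, on both strands (CATTCC on the other). RefSeq windows on GRCm38.p6, from 250 bases before to 50 after a gene's start, were matched for 8 of the 10 members, without *Tead1* and *Tead4*. Windows of 5 members held the motif, namely *Yap1*, *Wwtr1*, *Vgll4*, *Lats2* and *Tead3*, as did 14.7% of all 32851 windows and 16.6% of 27025 genes in any of their windows. The stretches around the motif are shown for the 4 genes in which it lay upstream of the start and outside annotated exons, 5′ to 3′ on the gene's strand, with the motif in capitals. They are chr9:8004705-8004764 (*Yap1*), chr3:57576014-57576073 (*Wwtr1*), chr6:114969253-114969312 (*Vgll4*) and chr17:28350955-28351014 (*Tead3*), each on the minus strand.
Yap1: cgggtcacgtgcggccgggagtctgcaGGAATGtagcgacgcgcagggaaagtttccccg
Wwtr1: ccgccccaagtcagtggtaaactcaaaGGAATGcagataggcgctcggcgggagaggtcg
Vgll4: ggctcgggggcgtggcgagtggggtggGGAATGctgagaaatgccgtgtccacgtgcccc
Tead3: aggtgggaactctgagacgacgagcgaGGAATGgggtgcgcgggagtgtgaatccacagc
The motif began 141 bases before the start of *Yap1* and 82 bases before a RefSeq start of *Vgll4*, which lies inside the span of that gene given below. In *Wwtr1* it began 136 or 170 bases before, depending on which of 2 annotated starts is taken, and in *Tead3* 182 bases before the most upstream of its starts. The match says only that these letters are present.

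*Yap1* (mm10 chr9:7931999-8004596, minus strand), the gene of YAP, differed between the libraries by less than its counting error in each of the 3 non-immune classes. Tumor cells gave 60 and 24 UMIs with PBS and anti–PD-1, respectively, or 9.47 CPM [7.22, 12.2] and 10.2 CPM [6.52, 15.1]. On the log2 scale, anti–PD-1 over PBS was 0.10 [−0.64, 0.81]. Fibroblasts had 43 and 16 UMIs, giving 20.8 and 20.7 CPM, and endothelial cells had 49 and 8 UMIs, giving 21.2 and 20.3 CPM. The intervals of these ratios reached from −0.93 to 0.85 in fibroblasts and from −1.35 to 1.03 in endothelial cells, so a difference within these bounds was not detectable at this depth. Immune cells were the low class, with 53 UMIs among 11352 PBS cells and 49 among 13702 anti–PD-1 cells (0.87 and 0.71 CPM). *Yap1* exons share 116 bases with *Gm20416* on the opposite strand, which had 0 UMIs in immune cells.

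*Wwtr1* (chr3:57455649-57575910, minus strand), the gene of TAZ, had lower values in the anti–PD-1 library in all 4 classes, and in 3 of them the interval of the ratio lay below 0. Endothelial cells had 296 and 32 UMIs, giving 128 CPM [114, 143] and 81.2 CPM [55.5, 115], with log2 ratio −0.65 [−1.23, −0.13]. That interval took in the median of −0.14 over all genes of the class. Fibroblasts had 225 and 60 UMIs, giving 109 CPM [94.9, 124] and 77.6 CPM [59.2, 99.9], with log2 ratio −0.48 [−0.92, −0.07]. Tumor cells had 75 and 17 UMIs, giving 11.8 and 7.20 CPM, and there the interval of the ratio, −0.72 [−1.57, 0.06], spanned 0. Among Y-positive, *Xist*-negative cells, which had a Y-linked UMI but none of *Xist*, the ratio was −1.39 in fibroblasts ([−1.98, −0.79], 51 and 49 UMIs) and −0.0092 in endothelial cells ([−1.22, 1.28], 10 and 17 UMIs). A difference in *Wwtr1* between the libraries was thus not detectable in endothelial cells of that smaller set, which held 28 PBS and 35 anti–PD-1 endothelial cells. Immune cells had 82 and 43 *Wwtr1* UMIs, with log2 ratio −1.12 [−1.69, −0.57]. In those cells 8 fibroblast markers that the class assignment had not used were at 64.8 and 21.2 CPM and 8 such endothelial markers at 40.2 and 19.0 CPM. The 8 fibroblast markers of the class assignment differed less, at 95.8 and 79.2 CPM. Its 8 endothelial markers went the other way, at 127 and 166 CPM. The part of such RNA in the ratio was not tested.

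**Figure D1:**
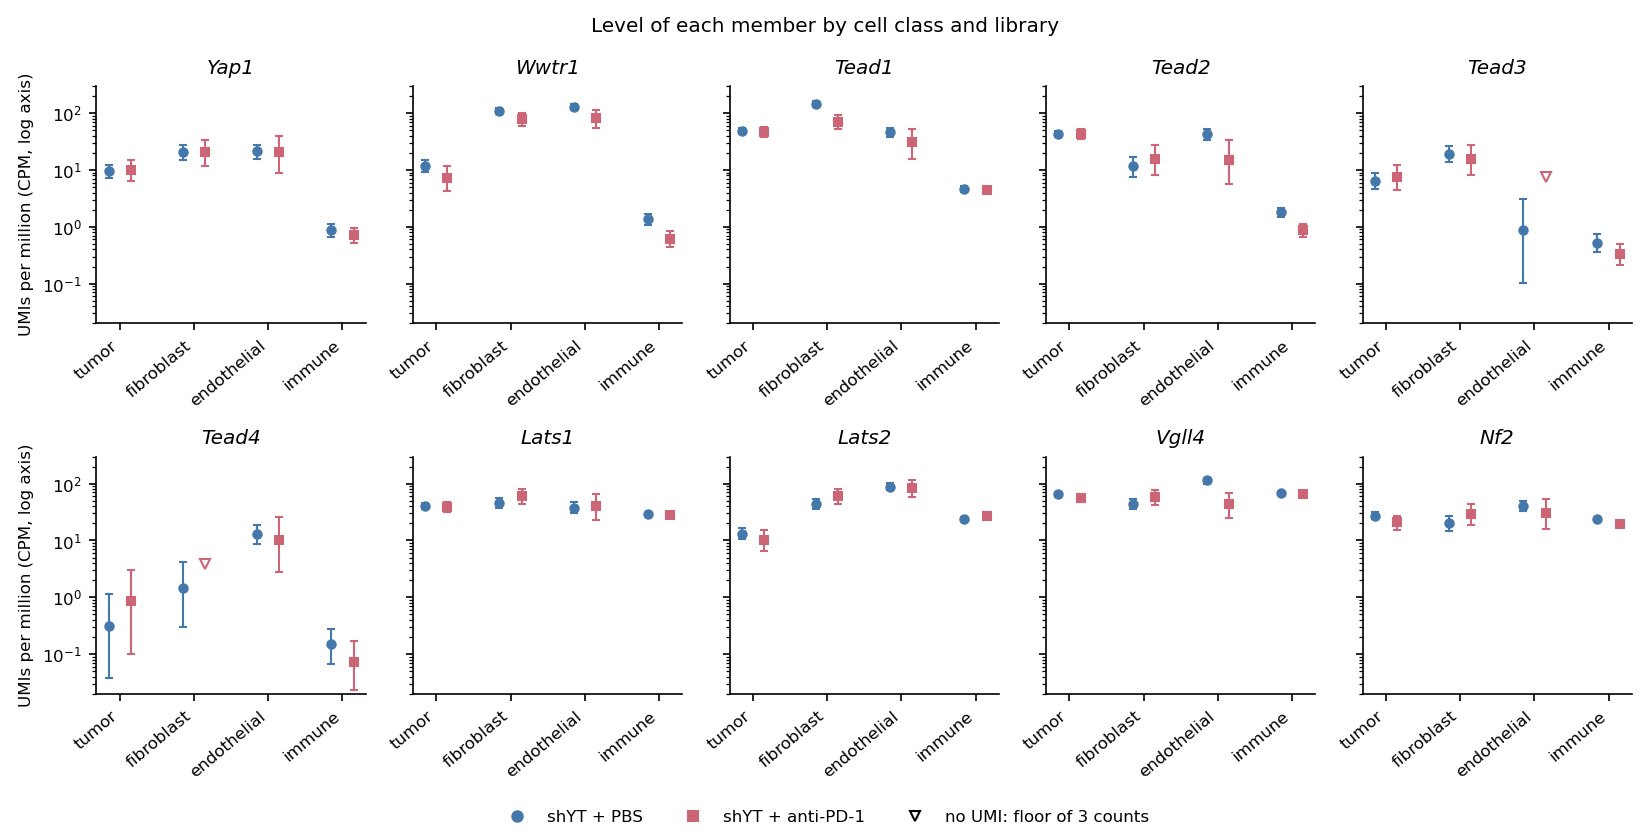
Level of each of the 10 genes (CPM, log axis) in tumor cells, fibroblasts, endothelial cells and immune cells of the PBS library (circles) and the anti–PD-1 library (squares), with exact Poisson 95% intervals and open triangles at a floor of 3 counts where no UMI was found. *Yap1*, *Wwtr1*, *Tead1* and *Tead2* were lowest in immune cells in both libraries, whereas *Lats1*, *Lats2*, *Vgll4* and *Nf2* were found in immune cells as well.

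The levels of both coactivators were compared between classes within each library. Which animals gave the cells of each class is not known. *Yap1* in tumor cells was 10.8-fold [7.36, 16.0] above PBS immune cells and 14.4-fold [8.45, 23.9] above anti–PD-1 immune cells. In fibroblasts it was 23.8-fold and 29.3-fold above immune cells, and in endothelial cells 24.2-fold and 28.7-fold. *Wwtr1* differed more between stroma and tumor cells. It was 80.4-fold [62.2, 105] and 125-fold [83.2, 190] above immune cells in fibroblasts and 94.6-fold [73.8, 122] and 131-fold [80.2, 212] in endothelial cells, against 8.75-fold and 11.6-fold in tumor cells. Fibroblasts and endothelial cells could not be ordered for either gene, since their intervals overlapped in both libraries. Tumor cells came next with intervals below those of both in the PBS library, while in the anti–PD-1 library *Yap1* intervals of the 3 classes overlapped. Both genes are targets of the induced shRNAs, so these are levels under knockdown. Without a control shRNA library, the part of knockdown depth in differences between classes was not tested. The same limit holds for the shares and patterns of these genes given below.

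Shares of cells with a UMI were taken after cells had been thinned to 1000 UMIs, and cells with fewer were left out. The *Wwtr1* share was again higher in fibroblasts and endothelial cells than in tumor cells. *Wwtr1* was found in 9.69% of 320 PBS fibroblasts and 7.77% of 103 anti–PD-1 fibroblasts, and in 11.2% of 427 and 7.25% of 69 endothelial cells. In tumor cells the share was 0.93% of 1072 and 0.58% of 519. *Yap1* was found in 2.50% [1.09, 4.87] and 1.94% [0.24, 6.84] of fibroblasts and in 0.75% [0.32, 1.47] and 0.96% [0.31, 2.23] of tumor cells. These intervals overlapped in both libraries, so the *Yap1* shares give no order. T cells, shown for comparison, had a *Yap1* UMI in 0.032% of 3154 and 0.12% of 3463 cells and a *Wwtr1* UMI in 0.063% and 0.058%. NK cells had a *Yap1* UMI in 0.56% [0.12, 1.62] of 538 PBS cells and in 0 of 741 anti–PD-1 cells. Whether free RNA gave the UMIs in immune cells was not tested.

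*Tead1* (chr7:112679318-112906807, plus strand) was the TEAD gene whose level differed most clearly between the libraries in fibroblasts. Fibroblasts had 299 PBS and 54 anti–PD-1 UMIs, giving 144 CPM [128, 162] and 69.9 CPM [52.5, 91.2], with log2 ratio −1.05 [−1.49, −0.62]. In tumor cells it had 310 and 110 UMIs (48.9 and 46.6 CPM) and a ratio of −0.07 [−0.40, 0.25]. In endothelial cells it had 106 and 12 UMIs, giving 45.8 and 30.5 CPM. The fibroblast difference was also seen within cells that carried a hepatic stellate cell gene (*Lrat*, *Reln*, *Rgs5* or *Ecm1*), which were 68.9% of PBS and 79.7% of anti–PD-1 fibroblasts. The 4 stellate genes together were at 1836 and 1079 CPM in fibroblasts and at 385 and 873 CPM in tumor cells, so they do not mark stellate cells alone. In the fibroblasts with such a gene *Tead1* was at 137 and 72.9 CPM, a ratio of −0.91 [−1.37, −0.48]. In Y-positive, *Xist*-negative cells it was −1.09 [−1.74, −0.42], and in thinned cells −1.15 [−2.34, −0.13]. No upper limit on detected genes or a looser marker gate left it just short of 2-fold.

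*Tead2* (chr7:45215753-45233644, plus strand) was the TEAD gene with its highest level in tumor cells in the anti–PD-1 library, and shared that place with endothelial cells in the PBS library. Tumor cells had 272 and 100 UMIs, giving 42.9 and 42.4 CPM, with log2 ratio −0.02 [−0.36, 0.32]. Endothelial cells had 98 and 6 UMIs, giving 42.3 CPM [34.4, 51.6] and 15.2 CPM [5.59, 33.1], a ratio of −1.47 [−2.96, −0.30]. The value rests on 6 UMIs in 75 cells. *Tead2* exons share 13 bases with the opposite-strand gene *Cd37*, which had 23872 UMIs in immune cells, and strand handling is not given, so *Tead2* counts there are uncertain. In sinusoidal endothelial cells, which carried *Stab2*, *Clec4g*, *Oit3* or *Fcgr2b* and made up 77.6% and 80.0% of the class, *Tead2* was at 40.6 and 16.6 CPM (−1.29 [−2.78, −0.10]). *Stab2* and *Clec4g* were also among the markers that defined the endothelial class. The sinusoidal genes together were at 384 and 330 CPM in monocytes/macrophages, so they do not mark sinusoidal cells alone. In cycling tumor cells, which had UMIs of at least 2 cycling genes, *Tead2* was at 68.1 CPM [51.8, 87.8] against 38.9 CPM [33.9, 44.5] in the other tumor cells of the PBS library. With anti–PD-1 the values were 58.5 CPM [38.9, 84.5] and 38.3 CPM [30.0, 48.2], whose intervals overlapped. *Tead1* was at 47.3 against 49.2 CPM and at 54.3 against 44.7 CPM in these cells.

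*Tead3* (chr17:28331671-28350817, minus strand) was found in tumor cells (41 and 18 UMIs, 6.47 and 7.63 CPM) and in fibroblasts (40 and 12 UMIs, 19.3 and 15.5 CPM), and had 2 and 0 UMIs in endothelial cells. The 0 among 75 cells allows up to 7.61 CPM by a floor of 3 counts, so a level like that of tumor cells could not be told from absence there. *Tead4* (chr6:128224288-128300823, minus strand) had the opposite pattern in the PBS library, with 30 UMIs in endothelial cells (13.0 CPM) against 3 in fibroblasts and 2 in tumor cells. The anti–PD-1 library held 4 *Tead4* UMIs in endothelial cells and 2 in tumor cells, too few to order. A fibroblast count of 0 in that library allows up to 3.88 CPM by the same floor.

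**Figure D2:**
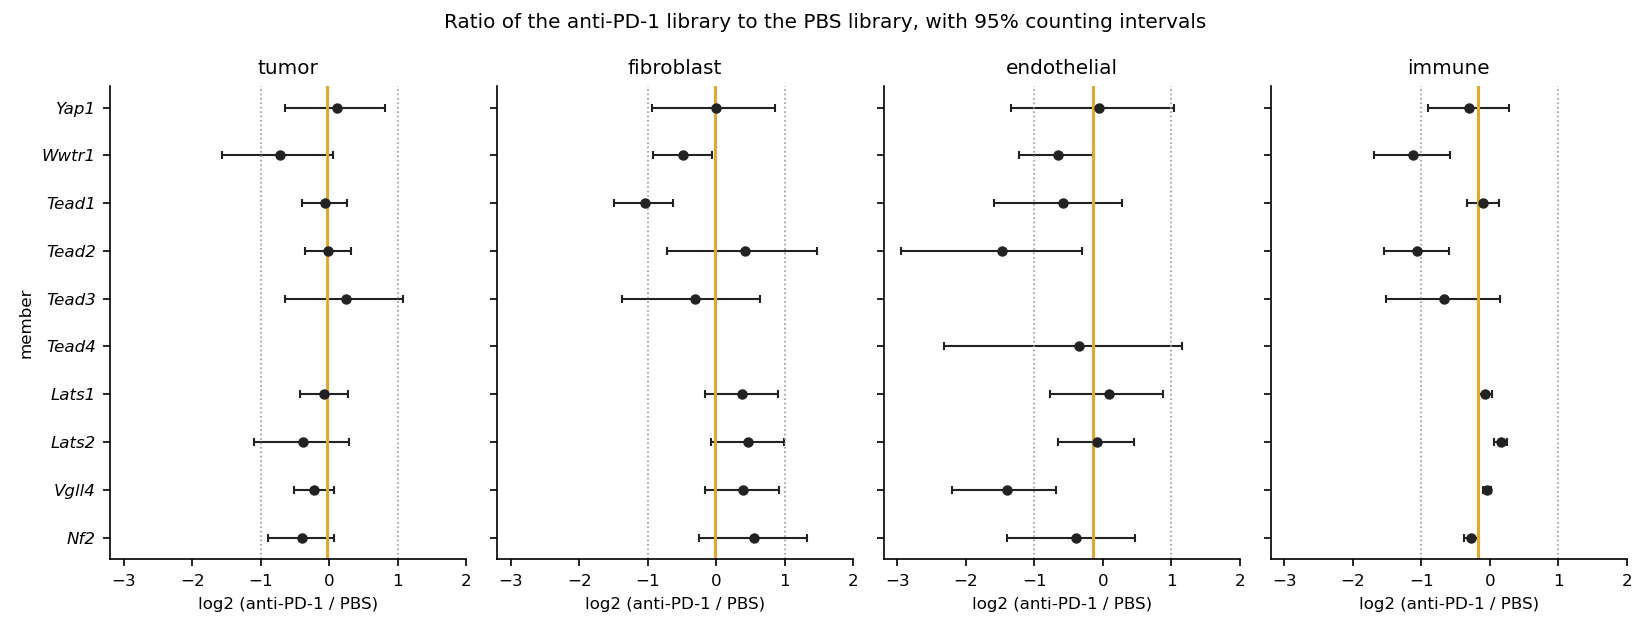
Log2 ratio of the anti–PD-1 library over the PBS library for each gene with at least 20 UMIs over both libraries, by class, with exact conditional 95% counting intervals. Dotted lines mark a ratio of 2 in either direction and the yellow line is the median of all genes of that class (−0.04 in tumor, −0.01 in fibroblasts, −0.14 in endothelial and −0.16 in immune cells); the intervals of *Tead1* and *Wwtr1* in fibroblasts, of *Tead2* and *Vgll4* in endothelial cells and of *Tead2* and *Wwtr1* in immune cells lay below that line.

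The kinases and the inhibitor of TEAD came next. *Lats1* (chr10:7681214-7716460, plus strand) was found in all 4 classes of both libraries. Its ratio was −0.07 in tumor cells (257 and 91 UMIs), 0.38 in fibroblasts (95 and 46), 0.10 in endothelial cells (88 and 16) and −0.07 in immune cells (1773 and 1935). The intervals spanned 0 in each class.

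*Lats2* (chr14:57689662-57758388, minus strand) was lowest in tumor cells. It was highest in endothelial cells of the PBS library, while in the anti–PD-1 library the intervals of endothelial cells and fibroblasts overlapped. Endothelial cells had 205 and 33 UMIs, giving 88.5 CPM [76.8, 102] and 83.7 CPM [57.6, 118]. Fibroblasts had 91 and 47 UMIs (43.9 and 60.8 CPM), and tumor cells 84 and 24 (13.3 and 10.2 CPM). The tumor level was below the immune level of 24.2 and 27.0 CPM in both libraries, at 0.55 [0.43, 0.68] and 0.38 [0.24, 0.56] of it. Between the libraries the ratio was −0.38 in tumor cells, 0.47 in fibroblasts and −0.08 in endothelial cells, each with an interval that spanned 0. In immune cells it was 0.16 [0.06, 0.26], on 1466 and 1872 UMIs, beside a median of −0.16 over all genes. Monocytes/macrophages, at 20.6 CPM of *Lats2* in the PBS library, were fewer in the anti–PD-1 library. The part of this lineage makeup in the immune ratio was not tested. *Lats2* exons share 2955 bases with the predicted gene *Gm49361* on the same strand, so its counts are uncertain where the counting had to split reads.

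*Nf2* (chr11:4765845-4849536, minus strand) was at 27.5 and 20.8 CPM in tumor cells (174 and 49 UMIs), 20.3 and 29.8 CPM in fibroblasts (42 and 23) and 40.2 and 30.5 CPM in endothelial cells (93 and 12). These intervals overlapped between the libraries. In tumor cells the ratio was −0.40 [−0.89, 0.06], and 1.07 [−0.20, 2.62] in Y-positive, *Xist*-negative cells, on 6 and 32 UMIs. In immune cells, where 1424 and 1348 UMIs were counted, the ratio was −0.27 [−0.38, −0.16], against a median of −0.16 over all genes of that class.

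*Vgll4* (chr6:114860628-114969994, minus strand) was the member with the lowest ratio in endothelial cells after *Tead2*. Endothelial cells had 263 and 17 UMIs, giving 114 CPM [100, 128] and 43.1 CPM [25.1, 69.1], with log2 ratio −1.40 [−2.20, −0.69]. In sinusoidal endothelial cells it was at 112 and 44.4 CPM (−1.34 [−2.17, −0.60]), and in Y-positive, *Xist*-negative cells −1.26 ([−2.59, 0.02], 14 and 10 UMIs). Thinning to 1000 UMIs moved it to −0.44 [−2.14, 0.89], on 42 and 5 UMIs. Tumor cells had 413 and 132 UMIs (65.2 and 55.9 CPM) and fibroblasts 92 and 45 (44.4 and 58.2 CPM), whose ratios of −0.22 and 0.39 had intervals that spanned 0.

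In each of the 4 classes 9 of the 10 genes had at least 20 UMIs over both libraries, namely all but *Tead3* in endothelial cells and all but *Tead4* in the other classes. In tumor cells 0 of 9 were past 2-fold in either direction, where 12.7% of all genes with that many UMIs were. In fibroblasts 1 of 9 was past 2-fold, *Tead1*, against 12.3% of all genes. In endothelial cells 2 of 9 were, *Tead2* and *Vgll4*, against 15.2%, and in immune cells 2 of 9, *Wwtr1* and *Tead2*, against 13.9%. All 5 of these were lower in the anti–PD-1 library. Under other scaling choices, given in the closing section, the immune count fell to 0. In Y-positive, *Xist*-negative cells the count was 2 of 7 in tumor cells, where 15.6% of all genes were past 2-fold, and 4 of 6 in fibroblasts, against 19.0%. These counts rest on 68 PBS and 199 anti–PD-1 tumor cells and on 31 and 65 fibroblasts. The median ratio of the 9 genes of each class was −0.07 in tumor cells, 0.38 in fibroblasts, −0.40 in endothelial cells and −0.27 in immune cells, beside −0.04, −0.01, −0.14 and −0.16 over all genes.

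Against immune cells of the same library, 5 of 9 members were at least 2-fold higher in tumor cells in both libraries (*Yap1*, *Wwtr1*, *Tead1*, *Tead2* and *Tead3*), as were 24.9% of all genes with PBS and 28.9% with anti–PD-1. In fibroblasts 5 of 9 and 7 of 9 were (23.7% and 34.6% of all genes), with *Lats1* and *Lats2* added in the anti–PD-1 library. In endothelial cells 6 of 10 and 5 of 9 were (21.8% and 39.3%). For these shares of all genes a count of 0 was set to the floor of 3 counts. Genes without a UMI in a class could thus count as higher. Members with such a 0 were not counted as higher, as *Tead3* in anti–PD-1 endothelial cells (0 UMIs there and 23 in immune cells). The shares are therefore not a like background, and no reading of the members is drawn from them.

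Markers of other cell types differed between the libraries in these classes, and whether they came from other cells was not tested. In tumor cells a list of 10 immune markers was at 1601 and 4976 CPM, with *Cd74* at 1044 and 3896 CPM, and 8 fibroblast markers at 256 and 29.7 CPM, of which *Fstl1* made up 215 and 16.1 CPM. The 8 B cell markers of the class assignment went the other way in tumor cells, at 1320 and 116 CPM. In endothelial cells the immune list was at 2427 and 3946 CPM, and in fibroblasts at 1252 and 1682 CPM. *Srgn* of that list was at 849 CPM in PBS endothelial and 891 CPM in PBS immune cells. The list thus does not mark immune cells alone. Neutrophil markers were at 257 and 672 CPM in endothelial cells. Acinar genes, used to leave out cells, were at 16.2 and 69.1 CPM in tumor cells. They were at 0.97 and 82.8 CPM in fibroblasts and 0.43 and 63.4 CPM in endothelial cells. All 10 immune markers were detected in both libraries in each of these classes. The stress list was at 4416 and 10551 CPM in tumor cells, 3094 and 10106 CPM in fibroblasts and 4110 and 9450 CPM in endothelial cells. The part of these in the ratios of the members was not tested.

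Immune cells were split by lineage to see where *Vgll4*, *Lats2* and *Nf2*, which immune cells share with the other classes, were found. *Vgll4* was highest in PBS neutrophils and NK cells, at 141 CPM [126, 157] and 118 CPM [102, 137]. In NK cells it was at 118 CPM in the anti–PD-1 library as well (188 and 343 UMIs, a ratio of 0.00). In T cells it was at 94.9 and 99.6 CPM (1026 and 1580 UMIs), and in B cells at 75.0 and 71.6 CPM. In dendritic cells it was at 28.1 and 51.1 CPM (30 and 41 UMIs, 0.86 [0.15, 1.59]) and in monocytes/macrophages at 55.5 and 46.2 CPM (1900 and 861 UMIs, −0.26 [−0.38, −0.15]). Dendritic cells had the stress list at 7843 and 11870 CPM, cycling genes at 412 and 906 CPM and neutrophil markers at 76.0 and 380 CPM. The part of these in the dendritic *Vgll4* ratio was not tested.

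In neutrophils *Vgll4* was at 141 CPM in the PBS library and 70.0 CPM [64.4, 76.0] in the other, on 332 and 571 UMIs, with log2 ratio −1.01 [−1.20, −0.81]. The share of thinned neutrophils with a *Vgll4* UMI was 12.6% of 1133 and 5.71% of 3014. The median over all genes was −0.32 in this lineage. There 4 of 7 measured members were past 2-fold, all lower (*Wwtr1*, *Tead1*, *Tead2* and *Vgll4*), against 18.4% of all genes in either direction. Of all genes in this lineage 72.8% were lower. Counts were low for *Wwtr1* (10 and 10 UMIs), *Tead2* (14 and 11) and *Tead1* (23 and 34). The 8 tumor markers used for the class were at 533 and 257 CPM in neutrophils and the 8 fibroblast markers at 525 and 251 CPM. B cell markers were at 327 and 1824 CPM there, NK cell markers at 55.9 and 238 CPM, T cell markers at 224 and 368 CPM and Kupffer cell markers at 555 and 882 CPM. The part of such RNA in the ratios of these 4 genes was not tested.

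*Lats2* was higher in B cells of the anti–PD-1 library, at 29.3 and 45.6 CPM (80 and 259 UMIs, 0.64 [0.27, 1.02]), and lower in Kupffer cells, at 30.7 and 20.9 CPM (145 and 200 UMIs, −0.56 [−0.87, −0.24]). In those B cells the B cell markers were at 29352 and 10522 CPM, neutrophil markers at 237 and 1028 CPM, dendritic cell markers at 272 and 827 CPM and the stress list at 5991 and 8902 CPM, and their part in the *Lats2* ratio was not tested. In Kupffer cells the Kupffer cell markers were at 25573 and 19705 CPM, neutrophil markers at 322 and 669 CPM and the stress list at 8493 and 17167 CPM. In monocytes/macrophages the *Lats2* ratio was 0.21 [0.04, 0.38]. In T cells and neutrophils it was −0.16 and 0.00, with intervals that spanned 0. *Nf2* was lower in T cells (−0.23 [−0.44, −0.02]), monocytes/macrophages (−0.28 [−0.47, −0.09]) and Kupffer cells (−0.48 [−0.83, −0.11]), beside medians over all genes of −0.20, −0.17 and −0.15. The stress list in monocytes/macrophages was at 7418 and 14576 CPM, and its part in these ratios was not tested. In T cells 3 of 8 measured members were past 2-fold (*Wwtr1*, *Tead2* and *Tead3*), against 12.0% of all genes, on 7 to 21 UMIs in each library. The 8 tumor markers of the class assignment were at 323 and 175 CPM in T cells, and their part in these ratios was not tested.

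**Figure D3:**
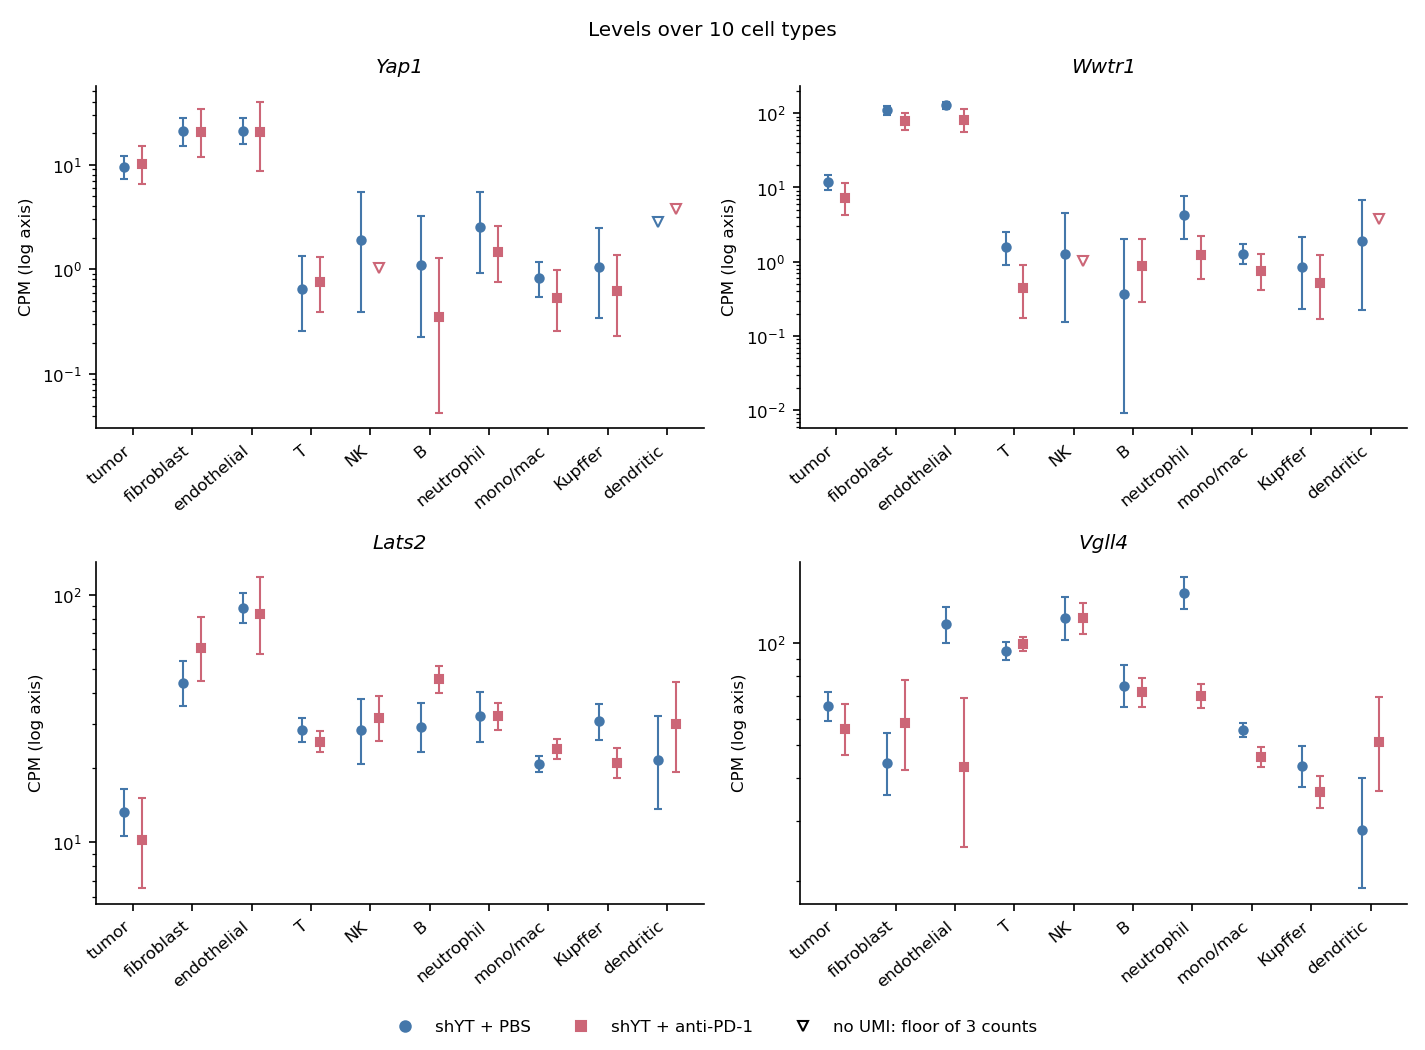
Level (CPM, log axis) of *Yap1*, *Wwtr1*, *Lats2* and *Vgll4* in 3 non-immune classes and 7 immune lineages of each library, with exact Poisson 95% intervals and open triangles at that floor where no UMI was found. *Yap1* and *Wwtr1* were low in the immune lineages, whereas *Lats2* and *Vgll4* were found in each of them, and *Vgll4* was lower in anti–PD-1 neutrophils.

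Subsets of the classes showed where the counts came from. For *Wwtr1* in sinusoidal endothelial cells the levels were 134 and 83.2 CPM, and in the remaining endothelial cells 108 and 59.5 CPM, the last on 2 UMIs. *Yap1* was at 22.6 and 22.2 CPM in sinusoidal cells. Fibroblasts without a stellate gene had a low depth, with a median of 1317 and 1134 UMIs, and held 23 and 4 *Wwtr1* UMIs, giving 93.3 and 87.1 CPM. In cycling tumor cells *Yap1* had 5 and 8 UMIs (5.77 and 16.7 CPM), and in the others 55 and 16 (10.1 and 8.51 CPM), with overlapping intervals.

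**Figure D4:**
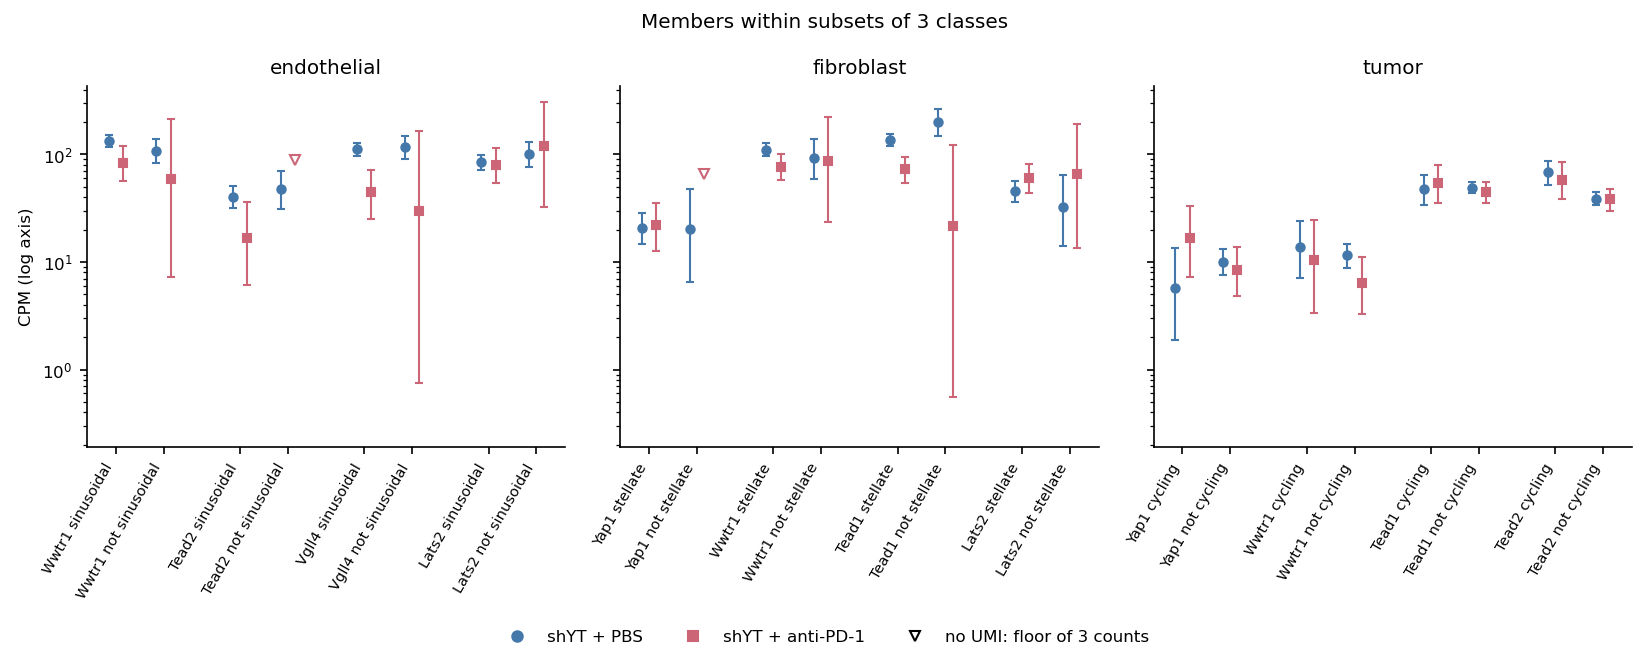
Level (CPM, log axis) of selected members in subsets of the endothelial, fibroblast and tumor classes by library, with exact Poisson 95% intervals. *Vgll4* and *Tead2* were lower in the anti–PD-1 library within endothelial cells that carried a sinusoidal gene, and *Tead1* within fibroblasts that carried a stellate gene. The cells outside the sinusoidal and stellate subsets rest on few anti–PD-1 UMIs.

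The genes whose pattern over 8 cell types and both libraries (16 points) was most like that of *Yap1*, among 9673 genes, included *Lamb2* (a laminin chain; Pearson r = 0.994) and *Fermt2* (kindlin-2, an integrin activator; 0.990). Those most like *Wwtr1* were *Ildr2* (0.992), *Cacna2d1* (a calcium channel subunit; 0.991) and *Serpinh1* (a collagen chaperone; 0.991). *Yap1* and *Wwtr1* had r = 0.95 with each other. The points share libraries, and the values mostly set fibroblasts, and to a lesser degree tumor cells, against the immune lineages. Endothelial cells, with 75 cells in the anti–PD-1 library, were not among the points.

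The remaining Hippo pathway genes, 46 without the members, were compared as a list taken from general knowledge. In tumor cells 42 were measured, 17 higher and 25 lower with anti–PD-1, and their median was −0.08, beside the −0.04 of all genes. The split was 21 and 20 in fibroblasts, 14 and 24 in endothelial cells, and 10 and 34 in immune cells. Of all genes, 53.7%, 50.7%, 60.7% and 64.7% were lower in tumor cells, fibroblasts, endothelial cells and immune cells. *Ywhaz* and *Ywhae*, 14-3-3 genes whose proteins hold phosphorylated YAP in the cytoplasm and which had the most UMIs of the list, were at 561 and 437 CPM and at 414 and 404 CPM in tumor cells. Past 2-fold in tumor cells were *Stk38l* (89 and 16 UMIs, with log2 ratio −1.05), a kinase of the NDR family related to LATS, and *Nuak2* (21 and 16 UMIs, 1.03). In fibroblasts they were *Dchs1*, a protocadherin (14 and 12 UMIs, 1.20), and the LIM proteins *Ajuba* (20 and 3 UMIs, −1.31 [−3.71, 0.44]) and *Wtip* (129 and 22 UMIs, −1.13), which restrain LATS. These intervals of *Nuak2*, *Dchs1* and *Ajuba* spanned 0. In other classes *Nuak2* had 1865 and 4450 UMIs in immune cells (1.06 [0.98, 1.14]) and 62 and 4 in endothelial cells (−1.40 [−3.32, 0.03]), and *Dchs1* had 252 and 21 in endothelial cells (−1.03 [−1.75, −0.39]). In endothelial cells 5 of 38 genes of the list were past 2-fold, all lower, against 15.2% of all genes in either direction.

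The 22 genes of a YAP/TAZ signature, of which *Lats2* is also among the 10 genes, are read as outputs of YAP/TAZ and TEAD. In tumor cells 21 were measured, with 6 higher and 15 lower, and their median was −0.38, beside −0.04 over all genes. In thinned cells 8 of 15 were lower, and in cells without immune marker UMIs 5 of 11, with medians of −0.30 and 0.09. The latter set held only 322 PBS and 55 anti–PD-1 tumor cells. The median over all genes was not computed for either setting. In endothelial cells 9 were higher and 6 lower with a median of 0.16, beside −0.14, and in immune cells 7 were higher and 14 lower with a median of −0.19, beside −0.16. *Ccn1*, a matricellular gene that YAP/TAZ regulate directly, was at 95 and 113 CPM in tumor cells (602 and 266 UMIs, 0.25 [0.03, 0.46]), 350 and 197 CPM in fibroblasts (−0.83 [−1.09, −0.58]) and 81.2 and 246 CPM in endothelial cells (1.60 [1.23, 1.96]). Immune cells had 465 and 765 UMIs (0.53 [0.36, 0.70]). The 97 anti–PD-1 endothelial UMIs lay in 15 of 75 cells, with 33 in the cell with the most, and of the 266 anti–PD-1 tumor UMIs 40 lay in 1 cell. The interval of the ratio lay below 0 in fibroblasts and above 0 in the other 3 classes, with those cells included. *Tgfb2*, a TGF-β ligand, was at 88.7 and 46.2 CPM in tumor cells (−0.94 [−1.25, −0.64]) and at 138 and 68.6 CPM in fibroblasts (−1.0 [−1.46, −0.58]). In tumor cells 1 signature gene was past 2-fold higher and 2 were lower, against 12.7% of all genes in either direction. The higher one was *Nuak2*, which is also in the Hippo list (21 and 16 UMIs, 1.03 [−0.002, 2.04]). *Igfbp3* had 56 and 3 UMIs (−2.80 [−5.12, −1.18]), of which 37 PBS UMIs lay in 1 cell, and *Ccdc80* had 49 and 8 (−1.19).

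In fibroblasts the signature had 7 genes higher, 13 lower and a median of −0.16. *Ankrd1*, a nuclear ankyrin repeat gene and classic YAP/TAZ target, had 275 PBS UMIs and 1 anti–PD-1 UMI, with log2 ratio −6.68 [−11.99, −4.19]. The PBS UMIs lay in 55 of 376 fibroblasts, with 55 in the cell with the most, and the anti–PD-1 UMI in 1 of 118. In tumor cells *Ankrd1* had 67 and 22 UMIs (10.6 and 9.32 CPM, −0.18 [−0.95, 0.53]). *F3*, tissue factor, went the other way in fibroblasts, at 26.1 and 62.1 CPM (54 and 48 UMIs, 1.25 [0.66, 1.84]), and was at 43.1 and 63.1 CPM in tumor cells.

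**Figure D5:**
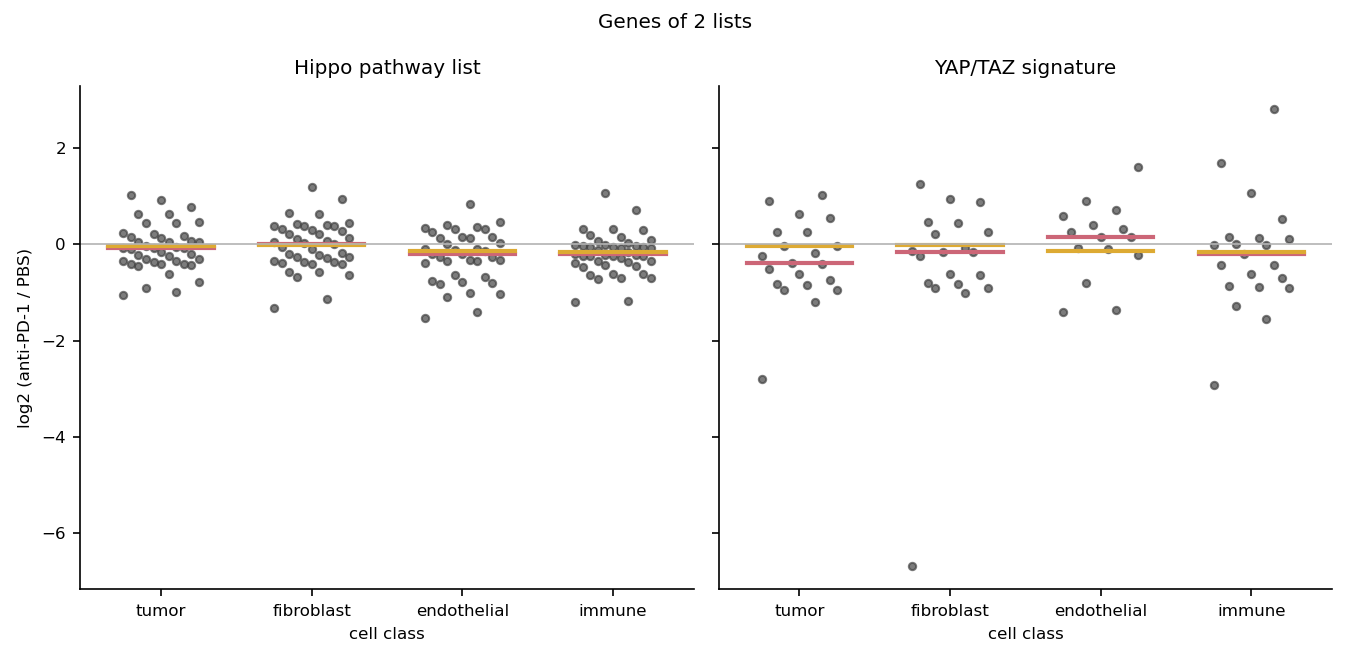
Log2 ratio of the anti–PD-1 library over the PBS library for the genes of the Hippo pathway list and the YAP/TAZ signature with at least 20 UMIs over both libraries and a UMI in each, by class. Red bars are the list's median and yellow bars the median of all genes, and the lowest point is *Ankrd1* in fibroblasts, at −6.68.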

How the data were processed

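The deposited values were raw UMI counts per gene and barcode, made by the authors with Singleron software on mm10. The software version, annotation and strand handling are not given in the sources used here, so genes that overlap are uncertain. The submitters' processing notes name Seurat 4.3. Of 32589 gene identifiers, 32445 (99.56%) were found in GENCODE vM21, which gave the coordinates.

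Cells were kept if 500 to 5000 genes were detected and no more than 10% of UMIs were mitochondrial. A cell took the class with most of 8 markers detected, with at least 3 markers and a lead of 2. For the immune class, the markers of the best immune lineage were counted. An immune cell then took the lineage with most markers by any lead over the next, a looser rule that mixed cells can pass. Ties left 445 PBS and 1063 anti–PD-1 immune cells in no lineage. Cells with more than 1% acinar UMIs and cells without such a lead (2070 and 1828) were in no class. No doublet caller was run. UMIs were summed per library and class (Python 3.11.15, NumPy 2.4.6, SciPy 1.17.1, pandas 2.3.3). Intervals were exact Poisson, conditional binomial or Clopper-Pearson at 95%. With 1 library per group there was no test. The interval code was tested on simulated data. Ratios were given for genes with at least 20 UMIs over both libraries, and a count of 0 was set to a floor of 3 counts. In the comparison with immune cells, members with a 0 were given no ratio instead. Named list genes had such a count and a 2-fold ratio in tumor cells or fibroblasts, or were the 2 with the most tumor UMIs in a list. Members and lists were chosen with earlier results of these data known. A gene with a pattern like that of *Yap1* is not reported here. Alternatives are in the closing section.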

Additional observations from a re-analysis of the deposited data

How the results depend on the processing

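With 1 library per group, leaving out a library could not be run. No paired analysis was possible because there is 1 library per group and no replicate number pairs them. Over the alternatives, 683 values were recomputed and 625 stayed within the counting interval of the reported value or, for counts, within 1.5 times of it. Of 425 log2 ratios, 32 left that interval. None that was past 2-fold changed sign, but smaller ones did: *Nf2* in tumor cells reached 1.07 and *Tead2* 0.76 in Y-positive, *Xist*-negative cells, and *Vgll4* in tumor cells 0.57 in cells without immune marker UMIs (322 and 55 tumor cells). *Tead1* in endothelial cells reached 0.40. Among the widest moves, *Lats1* in fibroblasts reached 1.41, *Tead3* −1.53 in fibroblasts and 1.12 in tumor cells, and *Tead2* in tumor cells −0.70. In thinned cells *Lats2* reached −1.86 in tumor and −1.62 in endothelial cells, *Lats1* 1.31 in endothelial cells and *Nf2* 1.64 in fibroblasts, on 2 to 5 anti–PD-1 UMIs each. *Yap1* stayed inside its interval in every class and between-library alternative, from −0.32 to 0.42 in tumor cells. *Wwtr1* in tumor cells lay between −1.17 and −0.46, and *Tead1* in fibroblasts between −1.16 and −0.91. The cause of the following shifts was not tested.

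In Y-positive, *Xist*-negative cells *Wwtr1* moved to −1.39 in fibroblasts, −0.0092 in endothelial cells and −1.84 in immune cells. Its log2 level over immune cells in the PBS library was 6.87 in fibroblasts and 5.22 in endothelial cells. The members past 2-fold numbered 2 of 7 in tumor cells, 4 of 6 in fibroblasts and 1 of 3 in endothelial cells, where 15.6%, 19.0% and 14.7% of all genes were. The signature had 8 of 16 genes lower in fibroblasts and the Hippo list 12 of 20 in endothelial cells. With a pseudocount of 5 CPM *Wwtr1* in immune cells was −0.18, and with 1 CPM −0.54, and 0 members were past 2-fold there in both. The first also gave 0 in fibroblasts. Median-ratio scaling gave 0 in immune cells. No upper limit on genes, the looser gate and cells without immune marker UMIs (77 and 7 fibroblasts) each gave 0 in fibroblasts. The looser gate gave *Wwtr1* in PBS fibroblasts a log2 level over immune cells of 5.92. Cells without immune marker UMIs numbered 97 and 10 in the endothelial and 322 and 55 in the tumor class. There the Hippo list had 5 of 15 genes lower in fibroblasts and 10 of 23 in endothelial cells. The signature had 5 of 11 lower in tumor cells and 7 of 12 in fibroblasts. In thinned cells *Yap1* in PBS tumor cells was 2.77 over immune cells, 1 member was past 2-fold in endothelial cells and 1 in immune cells, the signature had 8 of 15 genes lower in tumor cells and the Hippo list 12 of 19 in fibroblasts. A minimum of 1 UMI gave 1 member in tumor cells and 2 in fibroblasts. Outside Y-positive, *Xist*-negative cells, the share of all genes past 2-fold under each of these settings is not given here. The share of all genes lower is given for none of them. These counts therefore stand without a background, and no reading of the members or lists is drawn from them. Subsets of sinusoidal and stellate cells were added after the data were seen. The 8 to 24 anti–PD-1 *Yap1* UMIs per non-immune class limit its ratios to the intervals given.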
